A study of Mus musculus with 661 samples.

Results

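The 9 genes described here belong to the cartilage program: the transcription factors Sox9, Sox5 and Sox6 and the matrix genes Acan, Hapln1, Matn1, Matn3, Comp and Chad. They were chosen by their symbols as cartilage matrix genes and the SOX factors that act with them. Each symbol matched 1 entry of the count table, so the list holds 9 of 45771 nuclear genes. The genes are followed through 4 sorted mesenchymal populations of mouse bone at 2 ages and through the 16 mesenchymal clusters that the study assigned to the cells. Of the young osteoprogenitor populations, OPr had at least 5 of the 9 genes in 32 of 44 cells and mOPr in 12 of 26. Young mOPr had nearly no Matn1 or Matn3. Most of the genes were lower in the old cells of these populations. For Sox6, Comp and Chad in OPr this depended on which old cells were used. The mesenchymal cells of the central marrow held little of the program at either age.

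The study asked how the stromal niche of the bone marrow changes with age, for which 661 stromal cells, each alone in a well, went through full-length RNA sequencing. All mice were wild-type C57BL/6 of both sexes, aged about 8 weeks (young, 3 mice) or about 24 months (old, 4 mice). Every gate took Ter119- and CD45-negative cells, and 182 young and 172 old cells were sorted as mesenchymal and 307 as endothelial. No label names the mouse of a cell, so the cells of an age and a population are 1 sample, the ages have no replicate, and no test between them was made.

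Sorting defined the groups. Cells freed with collagenase from crushed bone (the endosteal fraction) gave MSC-S (CD31-negative, Sca-1+, CD51+), mOPr (CD31-negative, Sca-1-negative, CD51+, PDGFRα+, LepR-negative) and OPr, which differ from mOPr by lacking PDGFRα. MSC-S stands for Sca-1+ mesenchymal stromal cells and OPr for osteoprogenitors. Flushed marrow plugs gave MSC-L, the LepR+ mesenchymal cells of the central marrow (Sca-1-negative, CD51+, PDGFRα+). The young groups held 44 OPr, 26 mOPr, 59 MSC-S and 53 MSC-L, and the old groups held 29, 26, 59 and 58. Clusters M1 and M2 are MSC-L-like, M3 to M5 OPr-like and M6 to M16 MSC-S-like in the study's scheme. The clustering used 7 of the 9 genes as guide genes (not Matn1 or Comp), so levels by cluster are a description only.

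As background, SOX9 starts and maintains the chondrocyte fate, and SOX5 and SOX6, which lack an activation domain of their own, bind beside it at the enhancers of cartilage genes. Aggrecan, the large proteoglycan of cartilage, hangs on hyaluronan through link protein (HAPLN1), and its chondroitin sulfate chains hold water. Matrilins, COMP and chondroadherin bind collagen fibrils and proteoglycans into a network with collagens II, IX and XI. In long bones such cells sit in the growth plate and the joint surface, next to the endosteal bone that was digested here.

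Levels are given as CPM, the counts of a gene per 1000000 nuclear gene counts, summed over the cells of a group, with exact 95% Poisson bounds. The wells carried no molecular identifiers, so all intervals cover counting error only. A cell was taken to carry a gene at 10 CPM or more. Nuclear counts per cell had medians of 686077 in young and 775426 in old OPr, 516984 and 444242 in mOPr, 602470 and 693396 in MSC-S, and 463538 and 352562 in MSC-L. The lowest of all cells had 57517 and the highest 1488549, both old OPr. Shares of cells are therefore also given after thinning every cell to 100000 counts, where 1 count is 10 CPM.

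The old OPr group is mixed, and this stands beside each of its results. Of its 29 cells, 8 carried at least 7 of 15 hematopoietic markers although the gate was CD45-negative, all of them in cluster M5. Those 15 markers summed to 24.9 CPM in young and 12575 CPM in old OPr. In old OPr 13 of them reached 10 CPM, led by S100a9 at 4041 CPM, whereas Cd79a and Cd3e had no count. Without the 8 cells the sum was 33.1 CPM. A further 10 of the 29 cells fell in the MSC-L-like clusters M1 and M2, against 3 of 44 young OPr. The 8 MSC-L markers summed to 6722 CPM in young and 26986 CPM in old OPr and to 1101 and 23981 CPM in mOPr, with Cxcl12 the highest of them in each. Old mOPr had 14 of 26 cells in M1 and M2, against 2 young ones. The part of these cells in the age results was not tested, and the main results are given with and without them.

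Cell names carry library numbers that fall into 3 ranges, 18697 to 18925 (range 1, 130 mesenchymal cells), 19909 to 20353 (range 2, 224 mesenchymal cells) and 26610 to 26801 (range 3, 188 endothelial cells and no mesenchymal cell). Each mesenchymal population and age has cells in ranges 1 and 2, so age ratios are also given within each range.

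Among the SOX factors, Sox9 (chr11:112782224-112787760, GRCm38) is the one that starts the chondrocyte fate. It stood at 895 CPM (884 to 906) in young and 99.6 CPM (95.4 to 104) in old OPr, at 671 and 71 CPM in mOPr, at 177 and 82.4 CPM in MSC-S, and at 22.1 and 21.4 CPM in MSC-L. The young endosteal groups were thus in the order OPr, mOPr, MSC-S, each above the old groups, and the MSC-L values at the bottom overlapped in their bounds. In single young OPr cells Sox9 ran from 0 through a median of 299 to 6752 CPM, and in old OPr from 0 through 1.24 to 1477 CPM, where 1 cell held 52% of the counts. Young OPr had 35 cells with Sox9 and old OPr 10. In mOPr Sox9 was carried by 14 of 26 young and 12 of 26 old cells, or 54.2% and 66.7% without M1 and M2 cells. The young mOPr median was 129 CPM with a highest cell at 3869.8 CPM, and the old mOPr median 2.57 CPM with a highest cell at 494 CPM. So the cells of both ages overlapped at the low end, while cells above 1000 CPM of Sox9 were found mostly in young mice, in 20 young and 2 old mesenchymal cells.

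Sox5 (chr6:143828425-144781977), a SoxD factor that pairs with Sox6, had another distribution. It measured 222 CPM in young OPr (216 to 227) and 222 CPM in young mOPr (215 to 229.9), which do not differ beyond these bounds. The old values were 46.1 CPM in OPr and 67.7 CPM in mOPr. MSC-S held 146 CPM when young and 196 CPM when old, and MSC-L 14.0 and 49.1 CPM. In the summed cells old MSC-S was therefore next below the young osteoprogenitors, and old MSC-L overlapped old OPr in its bounds. Median cells showed this order too, with 121 CPM in young OPr, 107 CPM in young mOPr and 77.4 CPM in old MSC-S. Below them were 11.0 CPM in young MSC-S and 2.60 CPM in old mOPr, and 0 in old OPr and both MSC-L groups. The library ranges differed. Young OPr, young mOPr and old MSC-S were at 249, 238 and 108 CPM in range 1 and at 200.3, 208 and 226 CPM in range 2. Old MSC-L and old OPr were at 91.2 and 6.85 CPM in range 1 and at 26.2 and 72.6 CPM in range 2.

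Sox6 (chr7:115470872-116038796), the other SoxD factor, had the lowest CPM of the trio in each of the 8 groups. It ran at 102 and 33.1 CPM in young and old OPr, 73.4 and 5.69 CPM in mOPr, 42.8 and 20.6 CPM in MSC-S, and 7.41 and 3.59 CPM in MSC-L. In MSC-L this rested on single cells, which held 98.2% of the 169 young and 95.7% of the 70 old counts. The 3 lowest groups (young MSC-L, old mOPr and old MSC-L) had overlapping bounds with their neighbours.

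**Figure D1:**
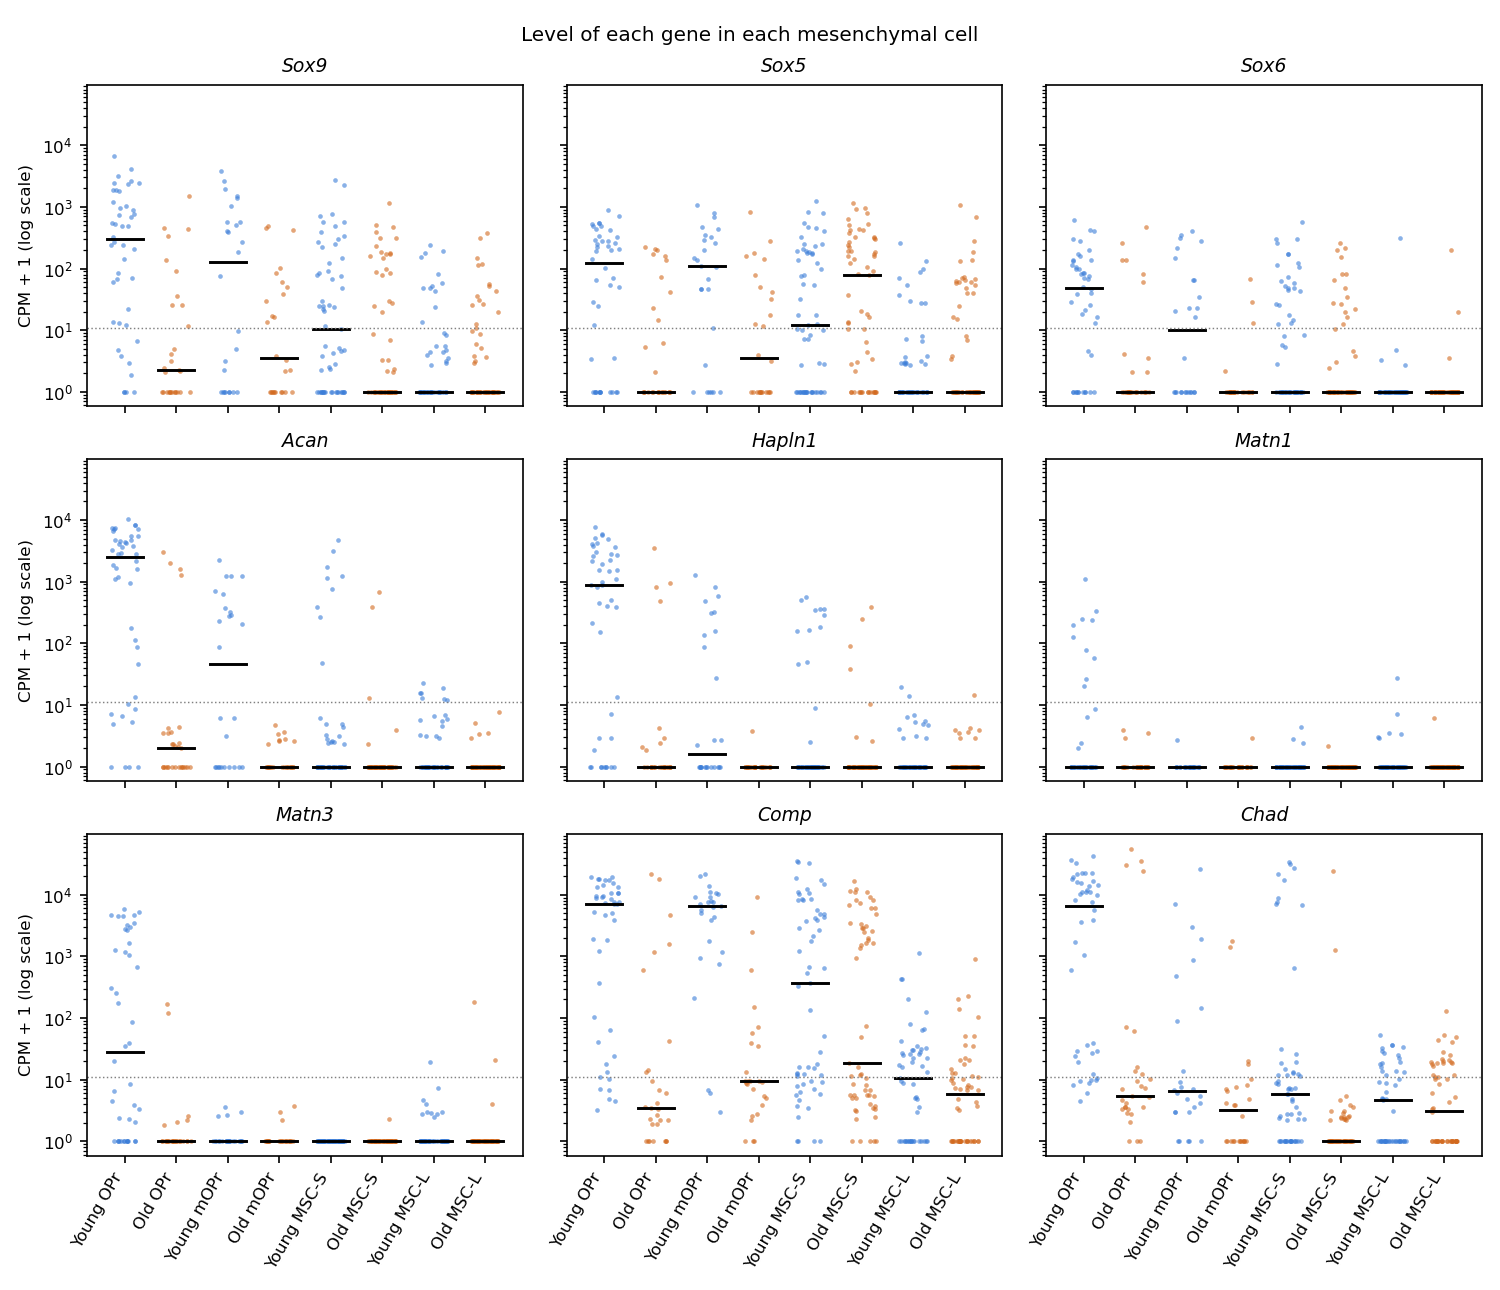
Level of each gene in each mesenchymal cell, as CPM + 1 on a log axis, by sorted population and age, with young cells in blue, old cells in orange, the median of a group as a black line and 10 CPM as a dotted line. Acan has a median of 2508 CPM in young OPr and 0.969 CPM in old OPr, and Matn1 and Matn3 reach 10 CPM in young OPr in 10 and 23 cells.

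Aggrecan and its link protein come next. Acan (chr7:79053483-79115099), the core protein, stood at 3067 CPM (3047 to 3087) in young and 255 CPM (249 to 262) in old OPr, at 402 and 0.721 CPM in mOPr, at 251 and 10.4 CPM in MSC-S, and at 2.59 and 0.256 CPM in MSC-L. Old mOPr had 9 Acan counts in all its 26 cells and no cell at 10 CPM, against 5863 counts and 13 cells in young mOPr. Young MSC-S reached the level of old OPr, with overlapping bounds. The 2 values rested on few cells: 4 of 29 old OPr cells and 9 of 59 young MSC-S cells carried Acan, and 1 cell held 41.8% and 40.3% of the counts. In old MSC-S 1 cell held 70.2%. Young OPr differed, since its median cell was at 2508 CPM, its highest at 10558 CPM, and 21 cells were needed to make up 90% of its counts.

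Hapln1 (chr13:89539796-89611652) followed Acan closely. It measured 1735 and 155 CPM in young and old OPr, 178 and 0.0801 CPM in mOPr, 53 and 7.30 CPM in MSC-S, and 1.27 and 0.462 CPM in MSC-L. The old mOPr value is 1 count, with bounds of 0.00203 to 0.446 CPM, so the young over old ratio of 2217 has a wide interval, from -16.42 to -8.63 as log2 of old over young. Its bounds overlap those of old MSC-L. As with Acan, 4 old OPr cells carried Hapln1, 1 of them with 48.2% of the counts, against 31 of 44 young ones, whose median was 895 CPM.

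The matrilins were nearly all in young OPr, which held 33155 of the 33481 mesenchymal counts of Matn3 and 1597 of the 1623 of Matn1. Matn3 (chr12:8947929-8972028), a matrilin of the growth plate, had 1130.3 CPM in young OPr and 10.7 CPM in old OPr from 228, of which 1 cell held 59.2%. Elsewhere it stayed at 0.274 and 0.240 CPM in mOPr and 0.702 and 3.80 CPM in MSC-L, with 0.0255 CPM in old MSC-S. Young MSC-S had no count, which allows up to 0.0868 CPM (3 counts). In old MSC-L 1 cell held 94.6% of the 74 counts. Matn1 (chr4:130944385-130955475), cartilage matrix protein, was at 54.4 CPM in young OPr, where 1 cell held 44.8% of the counts, and at 0.187 CPM in old OPr from 4 counts (0.0510 to 0.479 CPM). In the other 6 groups Matn1 lay between 0.0255 and 0.570 CPM, and neighbours in this order overlapped.

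Shares of Matn1 are near the background of the 10 CPM rule. Over all mesenchymal cells 3.11% carried it, below the 4.23% of endothelial cells, a lineage that should lack cartilage genes and was sequenced to a median of 344234 nuclear counts against 517062. The endothelial share came from range 3, where 12 of 188 cells carried Matn1. In ranges 1 and 2, the ranges of all mesenchymal cells, it was 1 of 119 (0.840%). Ranges 1 and 2 held AEC (endosteal endothelial cells) alone. All SEC (endothelial cells of the central marrow, 70 young and 71 old) lay in range 3, so the ranges differed in endothelial population as well. Within young OPr 10 of 44 cells carried it. After thinning, the shares were 4.87% of mesenchymal and 9.84% of all endothelial cells.

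Comp (chr8:70373558-70382066), a pentameric protein that binds collagen in cartilage, tendon and ligament, was the most widespread of the list. It stood at 7632 and 1461 CPM in young and old OPr, 7341 and 496 CPM in mOPr, 4760.1 and 2657 CPM in MSC-S, and 57.6 and 37.6 CPM in MSC-L, with no overlap of bounds between neighbours. It was carried by 199 mesenchymal cells (56.2%), and MSC-S kept it in 43 of 59 young and 34 of 59 old cells. Those 199 include 26 young and 18 old MSC-L cells, whose share differed between library ranges. It was 4 of 20 young and 4 of 20 old cells in range 1, and 22 of 33 and 14 of 38 in range 2. Single cells were spread widely, with medians of 364 CPM in young and 17.5 CPM in old MSC-S and highest cells of 35616 and 16903 CPM. In old OPr the median cell was at 2.48 CPM, and 3 cells made up 90% of the counts. In old mOPr 1 cell held 57.4% of the Comp counts, and in MSC-L 1 cell held 42.8% of the young and 49.2% of the old ones.

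Chad (chr11:94565047-94569127), a leucine-rich protein that binds collagen and integrin, gave the highest CPM of the 9 genes in OPr. It measured 10345 and 4302 CPM in young and old OPr, 2139 and 153 CPM in mOPr, 2810.4 and 135 CPM in MSC-S, and 8.55 and 12.5 CPM in MSC-L. Young OPr had a median cell of 6642 CPM and a highest of 42253 CPM. In old OPr the highest cell reached 56026 CPM, above any young cell, while the median was 4.34 CPM and 4 cells made up 90% of the counts. Young mOPr rested on few cells as well, with 68.7% of its Chad counts in 1 cell, and in old mOPr and old MSC-S 1 cell held 62.5% and 78%. The share of MSC-L cells with Chad at low levels, 32.1% of young and 36.2% of old cells, differed between library ranges: 0 of 20 young and 1 of 20 old cells in range 1, and 17 of 33 and 20 of 38 in range 2.

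Endothelial cells give the background for shares of cells. The study notes pericytes and mixed doublets among its endothelial clusters, and 297 of the 307 cells carried at least 5 of 10 endothelial markers. Sox9 was carried by 41.5% of mesenchymal and 6.51% of endothelial cells, Sox5 by 47.5% and 4.56%, and Sox6 by 26.6% and 7.82%. For the matrix genes the shares were 19.8% and 0.977% for Acan, 7.91% and 0.326% for Matn3, 56.2% and 5.21% for Comp, and 33.6% and 9.45% for Chad. Hapln1 was carried by 17.8% of mesenchymal cells and by 0 of 307 endothelial cells, which allows up to 0.977%. In the 297 cells alone the endothelial shares stayed between 0% (Hapln1) and 9.76% (Chad). Within ranges 1 and 2, a background chosen after seeing the data, the 119 endothelial cells were all AEC, with a median of 476324 nuclear counts. There the shares were 3.36% for Sox9, 4.2% for Sox5, 11.8% for Sox6, and 0.840% for Acan and Matn1. They were 13.4% for Comp, 16% for Chad, and 0 for Hapln1 and Matn3, which allows up to 2.52%. So 8 of the 9 genes were carried by a larger share of mesenchymal than of all endothelial cells. All 9 were carried by a larger share than of the AEC in ranges 1 and 2. After thinning to equal depth the pairs of shares were 44.7% and 13.8% for Sox9, 51% and 7.87% for Sox5, 27.5% and 9.84% for Sox6, 24.4% and 5.57% for Acan and 20.6% and 2.62% for Hapln1. For Matn3 they were 10.6% and 0.984%, for Comp 65.3% and 11.5% and for Chad 41.8% and 12.1%. Before thinning, the MSC-L shares of Sox6 (1.89% and 3.45%) and the old MSC-S share of Chad (3.39%) lay below the endothelial share of the same gene. Against the AEC of ranges 1 and 2, so did the old mOPr shares of Sox6 (11.5%) and Chad (15.4%). No cell carried Acan in old mOPr and old MSC-L, or Matn3 in mOPr and MSC-S of both ages. These zeros lay below the shares of all endothelial cells too, but they allow up to 11.5% in mOPr, 5.08% in MSC-S and 5.17% in old MSC-L.

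Levels can be set side by side between genes only per length, here as CPM per kb of exon. In young OPr the order on this scale was Chad (6158), Comp (2572), Acan (411), Matn3 (375), Hapln1 (294), Sox9 (216), Matn1 (27.2), Sox5 (15.4) and Sox6 (6.88), and no neighbours overlapped in their bounds. In young mOPr Comp led at 2474 CPM per kb, before Chad at 1273 and Sox9 at 162, and Acan and Hapln1 stood at 53.8 and 30.1. In the summed cells the transcription factor Sox9 thus stood above aggrecan per kb in mOPr and MSC-S of both ages, and below it in OPr of both ages. Within library ranges this did not hold throughout. In range 1 old MSC-S had 19.2 CPM of Sox9 and 41.1 CPM of Acan, and old OPr 1.39 and 0.812 CPM, with exons of 4.13 and 7.47 kb. In range 2 young MSC-S had 206 and 378 CPM, near the same level per kb. In the summed young MSC-S the order began with Chad at 1673 and Comp at 1604 CPM per kb, followed by Sox9 at 42.9 and Acan at 33.6. In range 1 young MSC-S had Chad at 412 CPM and Comp at 4625 CPM, so Comp was above Chad there. Old MSC-S had Comp at 896 and Chad at 80.1 CPM per kb, and Acan (1.4), Sox6 (1.39) and Hapln1 (1.24) overlapped. In MSC-L of both ages Comp was highest, at 19.4 CPM per kb in young and 12.7 in old cells.

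The age comparison asks how much of the program the old cells of each population hold. For each population a gene passed the filter with at least 100 counts over both ages and a count in at least 5 cells, and it was called lower or higher at a change of 2-fold or more in CPM with a pseudocount of 1 CPM. The median-of-ratios scaling moved the all-gene median log2 ratio from 0.14 to 0.01 in OPr and from 0.11 to -0.01 in mOPr, so log2 values in these populations would be lower by about that shift on the other scale.

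In OPr all 9 genes passed and all 9 were lower in old cells, where 19.6% of 13418 genes were at least 2-fold lower and 25.6% at least 2-fold higher. The SOX factors were 8.99-fold (Sox9), 4.81-fold (Sox5) and 3.08-fold (Sox6) higher in young cells. Among the matrix genes the young over old ratio was 12.0 for Acan, 11.2 for Hapln1, 106 for Matn3, 5.22 for Comp and 2.40 for Chad. Matn1 passed through its young counts alone and had to differ. Its ratio was 291, or log2 -5.55 with the pseudocount. The median log2 ratio of the 9 genes was -3.16, against 0.14 for all genes.

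These OPr values changed with the cells that were used. Without the 8 blood-marker cells 8 genes were lower (all genes 18.4%), and without the M1 and M2 cells 8 (all genes 31.9%). With both kinds left out, a choice made after seeing the data, 41 young and 11 old cells remained and 6 genes were lower, against 28.4% of all genes, with a median of -1.66. On that basis the log2 ratios were -1.66 for Sox9, -1.58 for Sox5, -2.01 for Acan, -1.91 for Hapln1, -5.39 for Matn1 and -5.13 for Matn3. Sox6 was then at -0.16 and Comp at -0.87, under 2-fold, and Chad turned to 0.31 with 11542 CPM in young and 14322 CPM in old cells. Leaving out either kind of cell alone also took Chad under 2-fold, to -0.85 without blood-marker cells and -0.56 without M1 and M2 cells. The same held for Chad with the mean of CPM over cells (-0.90) and after thinning (-0.83).

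The library ranges differed in OPr as well. In range 1 (13 young, 10 old cells) the log2 ratios were -8.23 for Sox9, -10.25 for Acan, -9.95 for Hapln1, -6.52 for Comp and -11.16 for Chad, and 9 of 9 genes were called lower, where 36.1% of all genes were lower and 24.6% higher. These old cells held 12 counts of Sox9, 7 of Acan, 1 of Hapln1, 27 of Chad, 1 of Sox6, 2 of Matn3 and 0 of Matn1, so the pseudocount sets much of these values, and 1 cell held 94.3% of the old Comp counts. In range 2 (31 young, 19 old cells) they were -2.63, -3.12, -3.10, -1.87 and -0.62, so 8 of 9 genes were called lower there and Chad was not, where 19.9% of all genes were lower and 31.2% higher. Sox5 and Sox6 moved likewise, from -5.00 and -6.31 in range 1 to -1.45 and -1.02 in range 2. Of the 10 old OPr cells of range 1, 3 carried blood markers, 5 fell in M1 or M2 and 2 in neither, whereas of the 19 of range 2, 5 and 5 did and 9 fell in neither.

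**Figure D2:**
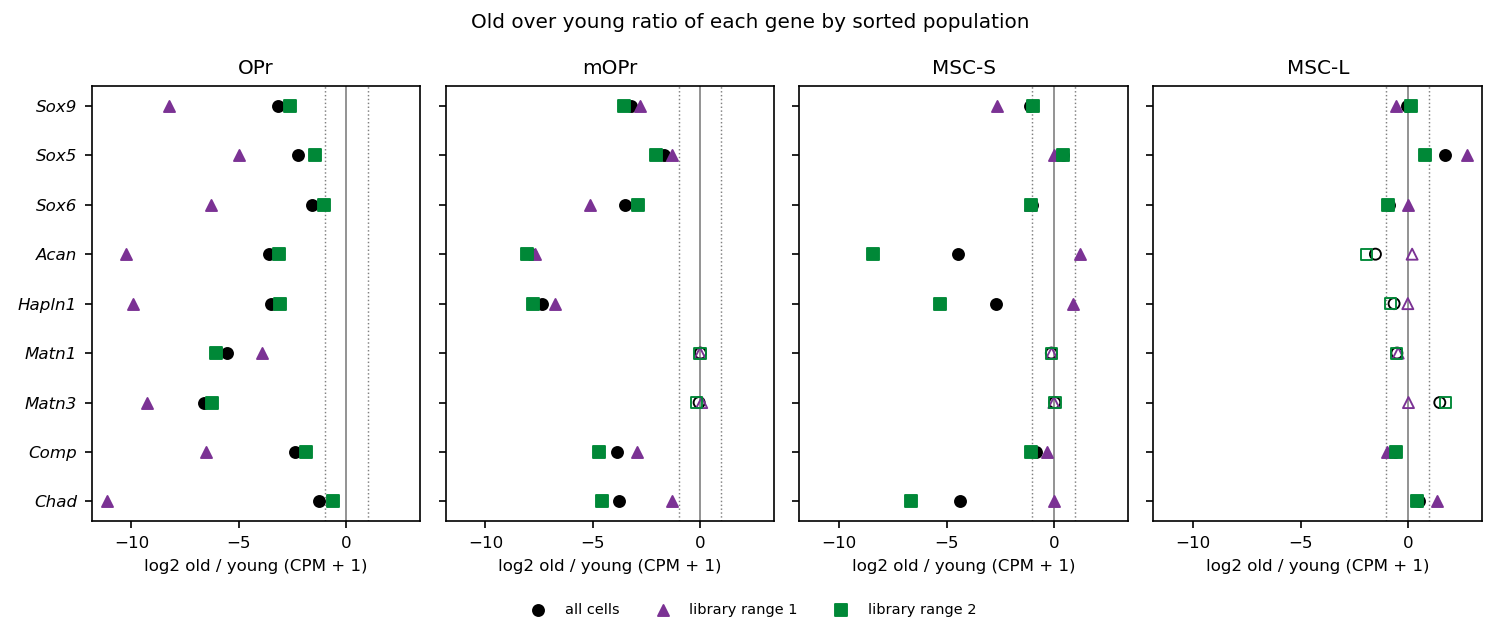
Log2 ratio of old over young CPM (pseudocount 1 CPM) of each gene in OPr, mOPr, MSC-S and MSC-L, from all cells (circles), library range 1 (triangles) and library range 2 (squares), with open symbols for genes that did not pass the filter and dotted lines at 2-fold. All filled symbols lie left of 0 in OPr and mOPr, whereas in MSC-S Acan is at 1.21 in range 1, from few cells, and -8.42 in range 2.

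In mOPr 7 of 9 genes passed and all 7 were lower in old cells, where 19.8% of 11237 genes were lower and 24.7% higher. Matn1 and Matn3 did not pass, with 1 and 4 young counts. Sox6, Acan and Hapln1 passed through their young counts, and of the other 4 genes, which had at least 100 counts at each age, all 4 were lower. Sox9 was 9.46-fold higher in young cells, Sox5 3.28-fold, Sox6 12.9-fold, Comp 14.8-fold and Chad 14.0-fold. The old Sox6 value came from 71 counts, 70.4% of them in 1 cell. Acan had a ratio of 558 between the ages, or log2 -7.87 with the pseudocount. In both library ranges the 7 genes were lower, where 28.8% of all genes were lower in range 1 and 25.7% in range 2, with log2 ratios of -2.81 and -3.52 for Sox9, -1.29 and -2.04 for Sox5, -7.68 and -8.05 for Acan (2 and 7 old counts), and -1.29 and -4.57 for Chad (98.1% and 98.3% of the old counts in 1 cell). Without the M1 and M2 cells (24 young, 12 old cells left) all 7 were still lower, at -2.82 for Sox9, -7.98 for Acan, -3.01 for Comp and -2.81 for Chad, and 34% of all genes were lower.

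In MSC-S 7 of 9 genes passed, 5 were lower and none higher in old cells, where 11.1% of 13381 genes were lower and 8.65% higher. Acan was 24-fold and Chad 20.9-fold higher in young cells, Hapln1 7.27-fold, Sox9 2.15-fold and Sox6 2.07-fold. Comp, at 1.79-fold, and Sox5, which was 1.34-fold higher in old cells, were under 2-fold, but Comp was called lower in range 2 (log2 -1.06, with -0.33 in range 1). Sox9 was at log2 -2.65 in range 1 (126 and 19.2 CPM, with 71.8% of the young counts in 1 cell) and -0.98 in range 2, and at -0.96 once the top cell at each age was left out. Sox6 was near 2-fold, at -1.12 and -1.09 in the ranges and -0.94 with size factors. For the 3 strongest genes the ranges went apart. In range 1 (20 young, 19 old cells) old cells were higher for Acan (17.2 and 41.1 CPM, log2 1.21) and Hapln1 (13.5 and 26.4 CPM, 0.91), and Chad was at 412 and 417 CPM (0.02). These values rest on single cells: Acan was carried by 1 young and 3 old cells, Hapln1 by 2 and 3 and Chad by 2 and 1. The top cell held 96.7% of the young and 70.7% of the old Acan counts, 85.5% and 46.5% for Hapln1, and 90.6% and 99.9% for Chad. Without the highest old cell the log2 ratios in range 1 were -0.38, 0.12 and -8.19, and they were 3.12, 2.35 and -4.90 when the top young cell was left out too. In range 2 (39 young, 40 old cells) Acan went from 378 to 0.102 CPM (3 counts), Hapln1 from 74.6 to 0.887 CPM and Chad from 4116 to 39.4 CPM. With range 1 alone 2 genes were lower (20.1% of all genes) and 1 higher (18.6% of all genes). The age difference of these matrix genes in MSC-S was thus present in range 2, and in range 1 their ratios turned on single cells.

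In MSC-L 5 of 9 genes passed and none was lower, where 11.5% of 13143 genes were lower and 13.9% higher. Sox5 was the exception with a call, 3.50-fold higher in old cells (14.0 and 49.1 CPM), carried by 10 of 53 young and 21 of 58 old cells. It went from 12.6 to 91.2 CPM in range 1 (log2 2.76) and from 14.9 to 26.2 CPM in range 2 (0.78, under 2-fold). Sox9 (-0.04), Comp (-0.60), Chad (0.50) and Sox6 (-0.87, from single cells, which passed through its young counts) were not called, and Acan, Hapln1, Matn1 and Matn3 did not pass. In range 1 Chad was called higher as well (1.34, from 4 and 19 counts), so 2 genes were higher there (20.3% of all genes) and none in range 2 (18.5%). The median of the 5 was -0.04, with 0.01 for all genes, and changed sign with the mean of CPM over cells (0.12).

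How many of the 9 genes a cell carried shows the program cell by cell. The median number was 7.00 in young and 1.00 in old OPr, 4.00 and 1.00 in mOPr, 2.00 and 2.00 in MSC-S, and 1.00 and 1.00 in MSC-L. At least 5 genes were carried by 32 of 44 young OPr cells (72.7%, exact Clopper-Pearson interval 57.2 to 85.0%) and 4 of 29 old ones (13.8%, 3.89 to 31.7%). For mOPr this was 12 of 26 young (46.2%, 26.6 to 66.6%) and 0 of 26 old cells, which allows up to 11.5%. For MSC-S it was 10 of 59 (16.9%, 8.44 to 29%) and 3 of 59 (5.08%, 1.06 to 14.1%). These intervals are over cells, not mice, and do not compare the ages. No MSC-L cell had 5, which allows up to 5.66% of young and 5.17% of old cells, and no endothelial cell of 307 did. After thinning, 3.77% of young and 3.57% of old MSC-L and 0.656% of endothelial cells had 5, and with 1 count as the level 26.4% and 10.3% of MSC-L.

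Over all mesenchymal cells, 54 of 182 young (29.7%, 23.1 to 36.9%) and 7 of 172 old cells (4.07%, 1.65 to 8.21%) carried at least 5 genes. The shares depend on the level that counts as carrying: with 1 count they were 48.4% and 19.8%, and with 100 CPM the young share was 23.1%. After thinning they were 33.1% and 6.55%. With 1 count the old share was 44.8% in OPr, 19.2% in mOPr and 16.9% in MSC-S, and the young share 88.6% in OPr and 32.2% in MSC-S. None of the 61 cells was a blood-marker cell. The 4 old OPr cells all came from range 2, 4 of its 19 (21.1%), against 0 of 10 in range 1. Of the 11 old OPr cells that were neither blood-marker cells nor in M1 or M2, these 4 made 36.4%. The 3 old MSC-S cells all came from range 1 (15.8% of 19). In young OPr the ranges gave 69.2% and 74.2%, and in young MSC-S 5.00% and 23.1%.

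**Figure D3:**
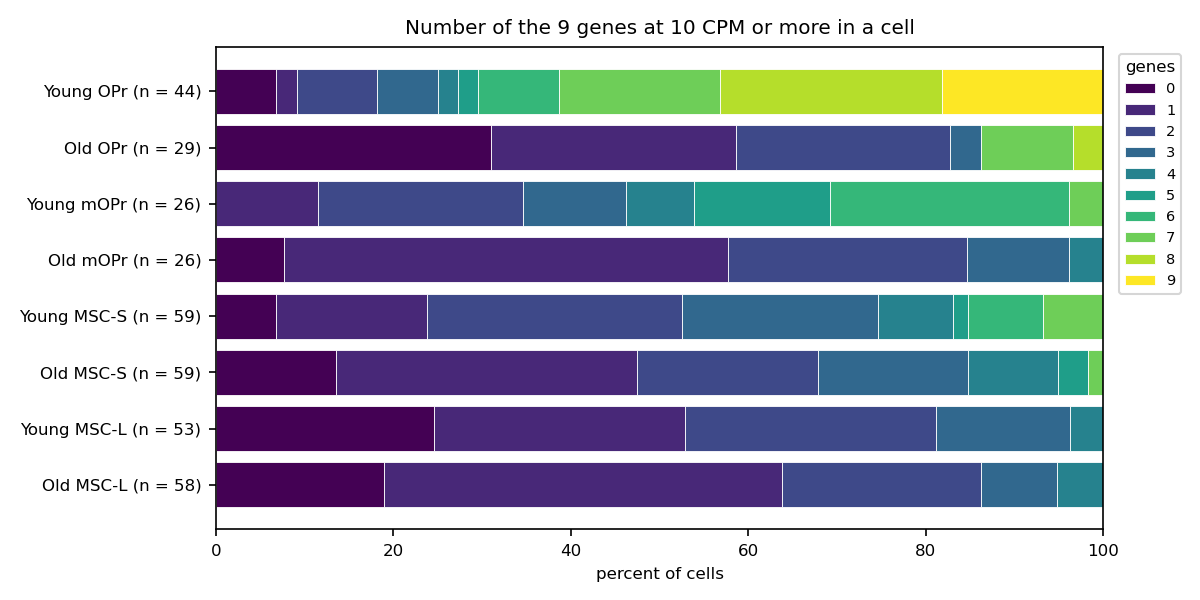
Percent of cells of each group by the number of the 9 genes at 10 CPM or more, from 0 (dark) to 9 (yellow). Cells with 5 or more genes make up 72.7% of young OPr, 46.2% of young mOPr and 16.9% of young MSC-S, against 13.8%, 0% and 5.08% of the old groups.

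The cells with many of the genes shared a few clusters. Of the 61 cells with at least 5 genes, 46 lay in M3, M4 and M15, and in these clusters all cells had at least 5: 16 of 16 in M3, 13 of 13 in M4 and 17 of 17 in M15. All 8 cells with the complete set of 9 were M3 cells. M15 held no old cell, M3 1 old and 15 young, and M4 4 old and 9 young. All 4 cells of M14 and the single cells of M11 and M13 also had at least 5 genes. M5, with 65 cells, had 8 with at least 5 genes, and M1, M2 and M16 had none.

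M3, M4 and M15 differed in which genes they held. M3 had Acan at 6146 CPM, Hapln1 at 3899.7, Matn3 at 2873, Matn1 at 145 (45.8% of the counts in 1 cell) and Sox9 at 2058 CPM. M4 held less Acan (2110.0 CPM) and Hapln1 (789) with little Matn3 (197, and 46.9% in 1 cell) and Matn1 (2.16), but its Chad, at 20829.6 CPM, was above the 18189 CPM of M3. M15 had Sox9 at 895, Acan at 1528 and Comp at 10812 CPM, with Matn3 at 0.248 CPM and no Matn1 count. So the matrilins set M3 apart from M15, and M4 lay between them. In young OPr the M3 cells, 15 of 44, held 97.7% of the Matn1 counts and 92.9% of the Matn3 counts, but 41.4% of Sox5 and 41.1% of Sox6.

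M16 showed Sox5 with little aggrecan. All 36 of its cells carried Sox5, at 441 CPM the highest level of Sox5 in any cluster of more than 1 cell, beside 113 CPM of Sox9, 0.321 CPM of Acan and 1.97 CPM of Chad. Comp was at 1930.2 CPM, in 14 of the 36 cells. M16 also held Prg4, the lubricin of joint surfaces and a gene of the other cartilage matrix list below, at 152867 CPM. Prg4 was at 402 CPM in M3, 18103 CPM in M4 and 19379 CPM in M15. These M16 cells held 88.6% of the Sox5 and 73.4% of the Sox9 counts of old MSC-S. M12 carried Comp at 5246 CPM in 25 of 27 cells with Acan at 9.84 CPM (96.2% in 1 cell), beside Thbs4 at 4022 CPM and Dcn at 33401 CPM, markers of tendon and connective tissue. The marrow clusters M1 and M2 had Sox9 at 24 and 21.4 CPM and Comp at 50.3 and 118 CPM.

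Old and young cells of a cluster can be set side by side where both are present. In M4 (9 young, 4 old cells) Sox9 was at 758 and 383 CPM and Acan at 2276 and 1548 CPM. Hapln1 was at 653 and 1250.2 CPM, but 1 cell held 1595 of its 2646 old counts. Chad was at 16700.4 and 34784 CPM, with each old cell at 24105 CPM or more, so the old M4 cells were not uniformly lower. In M5 (31 young, 34 old cells, 8 of them blood-marker cells) Acan was at 254 and 0.646 CPM, Hapln1 at 62.6 and 0.176 CPM, Comp at 3992 and 394 CPM, and Sox9 at 119 and 42.3 CPM, whereas Sox5 differed little, at 37.4 and 30.9 CPM in 9 and 8 cells. In M16 (15 young, 21 old cells) Sox5 was at 408 and 464 CPM and Sox9 at 43.4 and 161 CPM. In M1 (42 young, 44 old cells) Sox5 was at 8.86 and 45.2 CPM, in 7 and 22 cells. The 7 old M1 cells sorted as OPr held 458 of the 984 old counts. In M2 (14 young, 36 old cells) Sox5 was at 47.2 and 66.4 CPM. Group ratios thus join differences in the clusters the sorted cells fell in with differences inside clusters, and the part of each was not tested. Among OPr cells, M3 and M4 made 22 of 44 young and 4 of 29 old.

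SOX9, SOX5 and SOX6 act as a trio, and cells carrying all 3 were counted. They were 58 mesenchymal cells, 43 of 182 young (23.6%, 17.7 to 30.5%) and 15 of 172 old (8.72%, 4.96 to 14.0%). By population the trio was found in 25 of 44 young and 3 of 29 old OPr, 7 of 26 and 2 of 26 mOPr, and 11 of 59 and 10 of 59 MSC-S. MSC-L had no such cell, and 1 of 53 young MSC-L cells after thinning.

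Acan accompanied the trio in some groups and not in others. In OPr and mOPr of young mice 25 of 25 and 7 of 7 trio cells carried Acan, and in old OPr 3 of 3. In MSC-S 5 of 11 young and 2 of 10 old trio cells carried it, and in old mOPr 0 of 2. Cells with Sox9 carried Acan in 53 of 90 young cases (58.9%) and 6 of 57 old ones (10.5%). Their Sox9 level was higher with Acan than without it, at medians of 560.3 and 75.6 CPM in young and 386 and 84.8 CPM in old cells, and the ranges overlapped (12.0 to 6752 and 10.5 to 2253 CPM in young cells). In the other direction, 7 Acan cells had none of the SOX factors, 6 of them young MSC-L cells near the 10 CPM line, where the highest Acan value was 21.3 CPM.

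Correlations over cells describe which genes rose and fell together. They use log2 of CPM + 1 over all mesenchymal cells (182 young and 172 old), which share mice, library ranges and depth, and the correlation of each gene with log2 depth was between 0.059 (Matn1) and 0.272 (Sox5). Acan and Hapln1 were closest at r = 0.880, with 53 cells carrying both, 75.7% of the Acan and 84.1% of the Hapln1 cells. Next were Acan with Chad at 0.720 and Hapln1 with Chad at 0.714. Sox9 was nearer to Acan (0.615) and Hapln1 (0.609) than to Sox5 (0.383) or Sox6 (0.433). Within the 44 young OPr cells alone Sox9 reached 0.836 with Acan, 0.721 with Sox5 and 0.716 with Sox6. Acan and Hapln1 were closest there too (0.894), followed by Hapln1 with Comp (0.867) and Comp with Chad (0.858), with Acan and Chad at 0.745. The weakest pair was Sox5 and Matn1 at 0.135 over all cells, and Sox6 and Matn1 at 0.169 in young OPr. All 63 Hapln1 cells and all 28 Matn3 cells carried Comp, which in turn was found in many cells without them.

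Of 11737 genes with enough counts, the 3 most alike to each gene over these cells were named. Beside genes of the list itself, Acan was most like Col2a1 (0.809), the chain of cartilage collagen, and Mfi2 (0.794), and Hapln1 most like Mfi2 (0.817) and Ucma (0.802). Mfi2 (0.589) was also among the 3 for Sox9, after Acan and Hapln1. Sox5 and Sox6 shared Cspg4 (0.586 and 0.606), a membrane proteoglycan, followed by Zfp385b and Colgalt2 for Sox5 and by Susd5 and Acan (both 0.596) for Sox6. For the matrilins they were Col9a3 (0.812), Fxyd2 and Prkg2 for Matn3 and Panx3 (0.689), Stc2 and Wisp3 for Matn1. Comp was most like Fmod (0.661), Kcnma1 (0.618) and Hapln1, and Chad most like Lect1 (0.750), Col2a1 (0.732) and 3110079O15Rik (0.726).

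Other genes of cartilage were counted the same way, beside the shares of all genes given above. A gene with few counts in old cells can pass through its young counts, so the genes with at least 100 counts at each age are also counted. Of all genes with such counts 12.4% were lower and 22.5% higher in OPr, 12.8% and 20.3% in mOPr, 7.02% and 5.55% in MSC-S, and 7.51% and 8.68% in MSC-L. Of the cartilage collagens 8 of 8 were lower in OPr (median log2 -4.72, and 7 of 7 with 100 counts at each age), with Col2a1 at 23589 and 509 CPM (73.2% of the old counts in 1 cell) and Col10a1, the collagen of hypertrophic chondrocytes, at 324 CPM (49.5% in 1 cell) and 0.0468 CPM (1 count). Without the blood-marker cells the 8 were still lower (-4.31). In mOPr 6 of 7 were lower (-2.63, and 3 of 4 with 100 counts at each age). In MSC-S it was 5 of 7 (-2.08, but -0.22 with the mean of CPM over cells, and 4 of 6 with 100 counts at each age). In MSC-L 2 were lower and 2 higher of 5 (0.41, and 1 and 0 of 2 with 100 counts at each age).

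Of the other cartilage matrix genes, 13 of 16 were lower in OPr (-2.74, or 13 and -2.32 without blood-marker cells), 10 of 13 in mOPr (-4.67), 11 of 15 in MSC-S (-1.53) and 1 of 6 in MSC-L (-0.81), and none was higher. With 100 counts at each age these were 13 of 15, 4 of 7, 7 of 11 and 1 of 4. Examples are Cilp, at 4469.6 and 2.56 CPM in mOPr, and Prg4, at 12069.8 and 9.59 CPM in OPr but 50938 and 57873 CPM in MSC-S. In OPr 1 cell held 44.9% of the young and 67.3% of the old Prg4 counts.

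Regulators and signals make 2 further lists. Of the other SOX and chondrocyte factors 7 of 13 were lower and 1 higher in OPr (median -1.16), or 2 and 1 of 7 with 100 counts at each age, and 6 and 2 without blood-marker cells (-0.76). They were 2 and 1 of 8 in mOPr (-0.27), where 19.8% of all genes were lower, 1 and 3 of 10 in MSC-S (0.39) and 2 and 0 of 8 in MSC-L (-0.27). With 100 counts at each age they were 1 and 0 of 6 in mOPr, 0 and 1 of 7 in MSC-S and 2 and 0 of 8 in MSC-L. Among them Trps1 stood at 379 and 136 CPM and Runx2, a factor of bone formation, at 202 and 313 CPM in OPr. Of the growth plate signals 4 of 8 were lower and 0 higher in OPr (-1.13), or 3 and 1 without blood-marker cells (-0.72), 2 and 2 of 7 in mOPr (0.57), 1 and 3 of 9 in MSC-S (-0.08) and 0 and 1 of 5 in MSC-L (0.19). With 100 counts at each age this list had 3 and 0 of 6 in OPr, 1 and 2 of 6 in mOPr, 1 and 2 of 7 in MSC-S and 0 and 1 of 5 in MSC-L. Pth1r, the receptor of parathyroid hormone and its relative, was at 836 and 325 CPM in OPr and at 255 and 555 CPM in mOPr.

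The enzymes that build and cut aggrecan were counted as well. Of the genes of chondroitin sulfate synthesis, 9 of 17 were lower and 0 higher in OPr (-1.07), or 8 and 1 without blood-marker cells (-0.69). They were 7 and 1 in mOPr (-0.17), 3 and 1 in MSC-S (0.00, between -0.06 and 0.08 by scaling) and 4 and 1 in MSC-L (0.20, or -0.02 with the mean of CPM over cells). Of those with 100 counts at each age, 8 and 0 of 16 were called in OPr (-1.03), 2 and 1 of 12 in mOPr (0.40), 3 and 1 of 17 in MSC-S and 3 and 1 of 16 in MSC-L. So in mOPr 5 genes had under 100 old counts. Chst11, a chondroitin sulfotransferase, was at 527 and 68.9 CPM in OPr, and Papss2, which makes the sulfate donor, at 519 and 29.9 CPM. Of the aggrecanases, related proteases and their inhibitor, 3 of 8 were lower and 3 higher in OPr, with a median of 0.08 that turned to -0.05 with size factors and -0.13 with the mean of CPM. Without blood-marker cells 2 were lower and 4 higher (0.49). They were 3 and 4 of 8 in mOPr (0.62), 1 and 3 of 9 in MSC-S (0.59) and 3 and 1 of 8 in MSC-L (-0.37). With 100 counts at each age they were 2 and 3 of 7 in OPr (0.71), 2 and 4 of 7 in mOPr (1.77), 1 and 3 of 9 in MSC-S and 2 and 1 of 7 in MSC-L. Here Adamts1 went from 155 to 1304 CPM in mOPr, in 14 and 19 of 26 cells. In OPr it went from 110.1 to 409 CPM, but in 15 of 44 young and 7 of 29 old cells, and 1 cell held 75.9% of the old counts. Adamts4, at 19.6 and 148 CPM in OPr, rested on 3 cells at each age, with 87.5% and 82.3% of the counts in 1 cell. Mmp3 went from 123 CPM in OPr, in 7 cells, to 0.0468 CPM (1 count). Adamts1 was also at 1717 CPM in young AEC, the endosteal endothelial cells, so it is not a gene of cartilage cells alone.

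Markers of other cells give the setting of these changes. Osteoblast markers were mixed in OPr (5 lower, 4 higher of 12, median -0.72, or 4 and 4 and -0.37 without blood-marker cells) and mOPr (3 and 3 of 12, -0.05), with 4 and 1 of 8 in MSC-S (-0.94) and 1 and 1 of 10 in MSC-L (0.10). Their sum was 6974 and 4339 CPM in OPr and 17186 and 18555 CPM in mOPr, so this sum was not lower in old mOPr. However, 14 of 26 old mOPr cells lay in the MSC-L-like M1 and M2, and young MSC-L had a sum of 12927 CPM. The mOPr sum without M1 and M2 cells is not given. Within it Spp1 was at 3302 and 5704 CPM and Bglap at 666 and 299 CPM. Tenocyte and fibroblast markers were lower for 6 and higher for 2 of 9 in OPr (-2.85, or 6 and 1 and -2.53 without blood-marker cells), 6 and 0 of 10 in mOPr (-1.14), 3 and 0 of 10 in MSC-S (-0.32) and 0 and 0 of 3 in MSC-L (0.16). MSC-L markers were higher in old cells for 7 of 8 in OPr (1.54, or 8 and 1.95 without blood-marker cells) and 8 of 8 in mOPr (3.52), for 2 in MSC-S with 2 lower (0.33), and for none in MSC-L (-0.15). Hematopoietic markers were higher for 13 of 13 in OPr (8.41, or 4 with 1 lower and 0.54 without the blood-marker cells), 1 of 1 in mOPr (4.25) and 5 of 7 in MSC-L (2.60), and 1 of 1 was lower in MSC-S (-1.03). Few of these markers had 100 counts at each age, and the others could pass through the counts of 1 age alone, which fixes the direction: 1 gene had 100 counts at each age in OPr (higher), 2 in MSC-L (1 higher) and none in mOPr and MSC-S. Endothelial markers summed to 38.9 and 66.1 CPM in OPr and 55.3 and 122 CPM in mOPr, far under the 10676 CPM of young AEC. They were higher for 1 of 3 in OPr (0.63, or 2 with 1 lower and 1.03 without blood-marker cells) and 1 of 2 in mOPr (1.99), lower for 2 of 4 in MSC-S (-1.06), and 1 lower and 1 higher of 4 in MSC-L (-0.37), and none of those with 100 counts at each age was called. Among the osteoblast markers with 100 counts at each age 5 were lower and 3 higher of 10 in OPr, 2 and 3 of 11 in mOPr, 3 and 0 of 6 in MSC-S and 1 and 1 of 9 in MSC-L. For the tenocyte and fibroblast markers it was 3 and 1 of 5, 4 and 0 of 8, 3 and 0 of 10 and 0 and 0 of 3. MSC-L markers were then higher for 7 of 8 in OPr and 8 of 8 in mOPr, with 1 lower and 2 higher of 7 in MSC-S.

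The genes behind the sorting antibodies were checked as well. Lepr, whose protein was gated out of mOPr, stood at 144 CPM in young and 1047 CPM in old mOPr, at 362 and 1333 CPM in OPr, and at 3160.4 and 3239 CPM in MSC-L. Pdgfra was at 93.3 and 193 CPM in OPr and at 464 and 1123 CPM in mOPr. Ly6a, which encodes Sca-1, was at 912 and 1304 CPM in MSC-S. Of the sort markers 1 was lower and 3 higher of 7 in OPr (median 0.63). Without blood-marker cells it was 2 and 3 (0.06), and Ptprc, the gene of CD45, which is among them, was at 0.136 CPM in young and 384 CPM in all old OPr. They were 0 and 3 of 5 in mOPr (1.27), 0 and 1 of 5 in MSC-S (0.37) and 0 and 2 of 6 in MSC-L (0.19). With 100 counts at each age they were 0 and 2 of 5, 0 and 2 of 4, 0 and 1 of 5 and 0 and 0 of 4.

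Reads were counted without strand, so overlapping genes were looked up. Sox5 shares 1330 exonic bases, 9.25% of its length, with Sox5os1, which had between 0 and 1.36 CPM in the groups. Chad lies inside Acsf2 on the other strand and Hapln1 holds the pseudogene Gm8546, both with 0 shared exonic bases. The other members have no exonic overlap with another gene.

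Most of these genes were lower in old than in young osteoprogenitors, and promoters are shown for some of them, from RefSeq (GRCm38.p6), as 250 bases before to 50 bases after the start of transcription. There were 12 entries for 7 of the genes, 6 of them for Sox6, and none for Sox9 or Comp. Both strands were searched for the core words that SOX proteins bind. The first is ACAATG, which reads CATTGT from the other strand. The next is ACAAAG, which reads CTTTGT from the other strand. The TATA word searched was TATAAA. Its reverse complement is TTTATA. Matches are in capitals. Of all 32851 promoters of 300 bases, 28.6% held a SOX word and 13.6% a TATA word. Of the 12 entries 6 held a SOX word, 1 of Sox5 and 5 of Sox6, and 3 a TATA word, 1 of Chad and 2 of Sox6. Shown are Acan and Hapln1, the pair most alike over cells, Chad, the gene of the highest level in OPr, and Sox5, the gene called lower in OPr and higher in MSC-L, at chr7:79052976-79053275 (plus strand), chr13:89540386-89540685 (plus), chr11:94564797-94565096 (plus) and chr6:143947057-143947356 (minus). Chad holds TATAAA and Sox5 ACAATG, and neither word is in the Acan and Hapln1 windows. The starts are those of RefSeq and can differ from the gene coordinates given above. The Sox5 window lies inside the gene, far from its start at 144781977, and the Hapln1 window also lies inside its gene. The Acan window ends before the gene start at 79053483. A match is a description of the letters only.
Acan: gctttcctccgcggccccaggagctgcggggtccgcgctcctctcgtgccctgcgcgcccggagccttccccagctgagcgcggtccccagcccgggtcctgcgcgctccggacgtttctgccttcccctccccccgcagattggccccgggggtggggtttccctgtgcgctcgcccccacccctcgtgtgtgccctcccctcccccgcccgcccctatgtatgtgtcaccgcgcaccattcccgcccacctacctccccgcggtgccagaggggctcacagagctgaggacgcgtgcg
Hapln1: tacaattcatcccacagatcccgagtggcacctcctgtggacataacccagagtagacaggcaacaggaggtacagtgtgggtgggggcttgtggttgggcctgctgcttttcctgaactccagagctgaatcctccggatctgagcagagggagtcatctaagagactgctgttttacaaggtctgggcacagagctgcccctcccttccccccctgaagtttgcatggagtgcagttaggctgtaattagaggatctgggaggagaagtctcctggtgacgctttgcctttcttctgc
Chad: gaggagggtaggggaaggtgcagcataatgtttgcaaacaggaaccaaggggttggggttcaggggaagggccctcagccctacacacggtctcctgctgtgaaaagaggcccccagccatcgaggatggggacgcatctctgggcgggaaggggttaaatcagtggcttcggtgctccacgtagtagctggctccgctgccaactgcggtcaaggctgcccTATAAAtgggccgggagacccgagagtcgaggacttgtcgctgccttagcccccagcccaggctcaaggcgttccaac
Sox5: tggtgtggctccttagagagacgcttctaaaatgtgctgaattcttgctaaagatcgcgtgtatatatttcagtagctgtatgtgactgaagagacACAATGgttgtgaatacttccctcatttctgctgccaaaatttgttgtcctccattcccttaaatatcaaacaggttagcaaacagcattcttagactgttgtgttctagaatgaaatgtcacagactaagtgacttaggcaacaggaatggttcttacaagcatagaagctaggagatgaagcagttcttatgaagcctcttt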

How the data were processed

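Raw counts per gene were deposited by the authors for 46078 gene entries, from GSNAP mapping (GRCm38.p4, Ensembl 81) and unstranded counting with HTSeq. Here 270 repeated symbols were summed and 37 mitochondrial genes were set aside, which left 45771 nuclear genes. Age, population and cluster came from the labels and the study's supplementary table. CPM, ratios and shares were computed from summed counts with exact Poisson, conditional binomial and Clopper-Pearson intervals. With 1 sample per age and population no test was made.

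Named genes are the 9 genes, those of the fixed lists, and the 3 genes with the highest Pearson r to each of the 9 among genes with at least 1000 counts and 10 CPM in at least 10 mesenchymal cells. The members and lists were chosen with earlier results of these data known. Alternatives were size factors, mean of CPM over cells, thinning (which left out 5 mesenchymal cells), pseudocount 0.1 CPM, keeping all low genes, each library range, and leaving out the top cell at each age, blood-marker cells or M1 and M2 cells. Leaving out blood-marker and M1 and M2 cells together, taking the endothelial background from fewer cells, and leaving out top cells within a range, were chosen after seeing the data. Steps were tested on counts drawn at random from the means of young OPr cells, with some genes changed by known ratios. All simulated cells of an age had the same profile, so this does not cover counts that rest on single cells. The tools were Python 3.11.15 with scipy 1.17.1, numpy 2.4.6, matplotlib 3.10.9 and pandas 2.3.3.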

Additional observations from a re-analysis of the deposited data

Results flagged for a closer look

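The old over young ratio of Sox5 had opposite directions in different populations, with log2 values of -2.24 in OPr, -1.70 in mOPr and 1.74 in MSC-L. The difference between the populations was not tested, and in MSC-L the value was 2.76 in library range 1 and 0.78 in range 2.

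Endothelial clusters, which enter the comparisons only as background, held some of the genes at 10 CPM or more. Others lay below that level without being absent, such as Sox9 in E4 at 8.02 CPM from 211 counts, 48.8% of them in 1 cell. E2, a cluster of 8 cells of which 3 carried at least 5 of 10 endothelial markers, had Sox5 at 56 CPM in 4 cells, Sox6 at 69 CPM in 5 cells and Acan at 53.1 CPM, with 90.2% of the Acan counts in 1 cell. Sox6 was at 16.5 CPM in E3, where 9 of 60 cells carried it, and at 33.8 CPM in E6, with 74.4% of the counts in 1 cell. Single cells also held most of Sox5 in E1 (25.7 CPM, 83.6%), Comp in E4 (70.9 CPM, 96.4%) and Chad in E4 (13.2 CPM, 77.5%).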

How the results depend on the processing

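The counts of genes lower in old cells and the shares of all young and all old mesenchymal cells with at least 5 genes had 57 values under alternatives, 5 of them from settings that left out no cell. Of the other 52, 46 stayed within a set distance, which is the interval for a share and 1.5 times for a count. That distance takes in the count in OPr, which went from 9 to 6 without blood-marker and M1 and M2 cells. The values outside it were the count in MSC-S, 5 and then 2 with range 1 alone, and the count in MSC-L, 0 and then 1 with a pseudocount of 0.1 CPM and 1 with no filter on low genes. The share of young cells with at least 5 genes moved from 29.7% to 48.4% with 1 count and to 23.1% with 100 CPM as the level that counts, and the share of old cells from 4.07% to 19.8% with 1 count, since these alternatives change the level itself. The same shares in the 8 single groups left their intervals in 12 of 49 values, not counting 15 from settings that left out no cell, for example in old OPr from 13.8% to 44.8% with 1 count and to 36.4% without blood-marker and M1 and M2 cells. The 22 called log2 ratios had 195 values under alternatives, not counting 22 from settings that left out no cell, with 180 of at least 2-fold in the same direction, 11 under 2-fold and 4 opposite. Matn1 in OPr and Sox6, Acan and Hapln1 in mOPr are among the 22. They passed through their young counts, which fixes the direction, and all their values are among those that stayed. The tally without them is not given. The opposite ones were Chad in OPr at 0.31 without blood-marker and M1 and M2 cells together, and Acan at 1.21, Hapln1 at 0.91 and Chad at 0.02 in MSC-S with range 1 alone, and the cause was not tested. Those of range 1 rest on single cells. Without the highest old cell Acan was there at -0.38, Hapln1 at 0.12 and Chad at -8.19. Without the highest cell of each age they were at 3.12, 2.35 and -4.90. Depth limits the ratios of Hapln1 in mOPr (1 old count) and Matn1 in OPr (4 old counts). No paired analysis was possible because the labels do not name the mouse of a cell.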
